A study of Mus musculus with 24 samples.

Results

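The effect of culture shared by tissue-resident macrophages (TRMs) of 4 organs was described by comparing all 12 libraries of TRM-like cells (TRM-LCs, in vitro) with all 12 libraries of sorted TRMs (ex vivo). The libraries were chosen by the state and organ in their labels and by no measured value, and they are 24 of the 24 libraries of the series. RNA was sequenced from microglia (MG), Kupffer cells (KC), peritoneal macrophages (PM) and alveolar macrophages (AM), with 3 libraries in each of the 8 groups. All mice were female C57BL/6J aged 8 to 12 weeks by the labels, and no group carried a genetic change. The ex vivo cells were sorted by FACS after isolation, on surface antigens of each population. The in vitro cells grew for 14 days on polyethylenimine from unsorted organ suspensions, taken from 3 mice per flask for brain, lung and peritoneum and from 1 mouse per flask for liver. MG-LCs received M-CSF and IL-34, KC- and PM-LCs received M-CSF, and these 3 cultures were kept in high glucose at 3% oxygen. AM-LCs received GM-CSF and were kept without added glucose at atmospheric oxygen. Every ex vivo library came from sorted cells and every in vitro library from unsorted, cultured and detached cells, so that culture and the handling around it cannot be told apart.

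TRMs settle in an organ early in life and take part of their gene expression from signals of that organ, such as TGF-beta in the brain or GM-CSF in the lung. In culture a part of these signals is absent or replaced by an added growth factor, and the cells meet a coated surface and a set level of oxygen and nutrients. Vegfa, the vascular endothelial growth factor, is a classical target of the hypoxia-inducible factors (HIF). Dio2, the type 2 deiodinase, turns the thyroid prohormone T4 into active T3, and Mt2 is a metallothionein, a small cysteine-rich protein that binds zinc and copper. These 3 genes were named with the comparison as markers of culture.

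The promoter windows of both metallothionein genes and of Dio2 are shown because metal-responsive and cAMP-responsive elements are the textbook control elements of these genes. Each run holds the 250 bases before the RefSeq start of the gene (assembly GRCm38.p6), written 5′ to 3′ on the strand of the gene. Capitals mark the core of the metal response element (TGCACNC or TGCGCNC, either strand) in Mt2 and Mt1 and the cAMP response element (CRE, TGACGTCA) in Dio2. Mt2 and Mt1 lie next to each other on chromosome 8.

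Mt2, chr8:94172368-94172617, plus strand: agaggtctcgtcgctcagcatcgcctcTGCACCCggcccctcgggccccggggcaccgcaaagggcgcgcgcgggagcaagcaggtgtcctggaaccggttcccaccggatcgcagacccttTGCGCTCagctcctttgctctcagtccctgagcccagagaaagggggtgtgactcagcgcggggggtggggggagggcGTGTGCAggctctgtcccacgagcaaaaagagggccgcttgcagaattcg

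Mt1, chr8:94178839-94179088, plus strand: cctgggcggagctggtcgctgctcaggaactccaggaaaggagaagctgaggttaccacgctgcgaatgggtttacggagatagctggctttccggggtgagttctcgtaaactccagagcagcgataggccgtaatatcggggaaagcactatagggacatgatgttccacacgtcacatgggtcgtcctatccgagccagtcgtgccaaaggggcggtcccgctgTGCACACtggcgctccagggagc

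Dio2, chr12:90739039-90739288, minus strand: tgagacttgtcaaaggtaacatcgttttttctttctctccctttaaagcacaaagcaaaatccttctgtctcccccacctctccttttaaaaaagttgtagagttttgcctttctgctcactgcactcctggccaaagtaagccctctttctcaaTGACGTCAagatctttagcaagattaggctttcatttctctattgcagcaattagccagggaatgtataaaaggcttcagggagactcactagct

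The window of Mt2 held 3 metal response cores and that of Mt1 held 1, and Dio2 held 1 CRE. The window of Vegfa, at chr17:46032378-46032627 on the minus strand, held 0 matches to the core of the hypoxia response element (ACGTG or GCGTG, either strand). The cores did not keep to the genes they are known for. The windows of Dio2 and Vegfa also held 1 metal response core each, and those of Mt2 and Mt1 held 1 and 2 hypoxia cores. These cores were not marked, but the hypoxia core of Mt2 shares its last letters with a metal response core in capitals. The metal response core was present in 21.4% of all 32851 windows of this length and in 28.7% of those of the genes tested, the hypoxia core in 38.6% and 52.4%, and the CRE in 1.55% and 2.46%. These are matches of letters only, and a window without a match says nothing about a factor.

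The libraries held 29569486 to 47105111 counted reads. Levels are given as counts per 1000000 counted reads (CPM), and a gene without a read could have been at up to 0.0661 to 0.115 CPM depending on the library (3 reads, counting error only). Transcripts of macrophages were present in both states, since Tyrobp, an adaptor of activating receptors, was between 519.8 and 3222 CPM and Fcer1g, the shared gamma chain of Fc receptors, between 438 and 2574 CPM in all 24 libraries. Of the 25 core macrophage genes listed, 3 were called higher (against 15.2% of all genes tested) and 2 lower (against 15.7%) in the fit of all organs described below, with a median log2 fold change of 0.15. The list was not level in each organ, since in AM 11 of the 25 were called higher (against 17.2% of all genes in AM) and 4 lower (against 14.1%). In MG, KC and PM 3, 7 and 7 were called higher (against 20.6%, 12% and 13.3% of all genes there). In the same order 4, 6 and 5 were called lower (against 17.7%, 18.1% and 9.98%), with medians of -0.54, -0.45 and -0.05. A mean of the 4 separate effects called 8 of the 25 higher. RNA of other cells also differed between the states. The summed level of 8 fibroblast and mesothelium genes was at most 23.8 CPM ex vivo and reached 30979 CPM in replicate 1 of the MG-LCs (7 of 8 genes with reads, Upk3b at 0), 2209 CPM in replicate 2 of the PM-LCs and 1668 CPM in replicate 3 of the AM-LCs (8 of 8 with reads), while KC-LCs had at most 29.8 CPM. These 3 libraries are called fibroblast-rich here. Leaving them out does not remove this RNA from the comparison, since replicate 3 of the MG-LCs (1012 CPM), replicate 3 of the PM-LCs (366 CPM) and replicate 2 of the AM-LCs (181 CPM) also stood above every ex vivo library. Without all 6 of these libraries, a fit added after the data were seen, 2311 genes were called higher and 3109 lower in vitro with organ as an additive block. In sorted KC, 8 endothelial genes, all with reads, summed to between 461 and 846 CPM, and 8 B cell genes, all with reads, to between 94.5 and 138 CPM, while in KC-LCs 6 of the 8 B cell genes were at 0. In bulk RNA, fewer cells of a type and less RNA per cell cannot be told apart, and the part of these other cells in the results was not tested beyond the fits without the 3 or the 6 libraries.

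Vegfa (ENSMUSG00000023951, chr17:46016993-46032369 of GRCm38, minus strand) was near 0 in sorted cells and rose in each culture. Ex vivo it was at 2.25, 2 and 1.89 CPM in MG, 0, 0.857 and 0.856 CPM in KC, 0.434, 0.927 and 0.597 CPM in PM, and 0.0299, 0 and 0.323 CPM in AM. In vitro it was at 896, 203 and 455 CPM in MG-LCs, 129, 272 and 443 CPM in KC-LCs, 373, 293 and 659.6 CPM in PM-LCs, and 53.1, 33.7 and 107 CPM in AM-LCs. The lowest in vitro library was thus above the highest ex vivo library of any organ, and AM-LCs, the culture at atmospheric oxygen, had the lowest values in vitro. With organ as an additive block, the log2 fold change (in vitro minus ex vivo) was 8.81 ± 0.60 (SE), with a Benjamini-Hochberg adjusted p of 1.04e-09 over 17408 genes in the quasi-likelihood test of edgeR, which gave the adjusted p that follow unless another tool is named. In the separate fits of the organs it was 8.03 ± 0.70 in MG, 8.91 ± 1.13 in KC, 9.39 ± 0.52 in PM and 9.04 ± 0.95 in AM (SE), and a difference between the organs did not pass the test (adjusted p = 0.701 for the interaction of state and organ, edgeR). Without the 6 libraries above 100 CPM of fibroblast RNA the additive value was 8.56 (edgeR adjusted p = 2.13e-07).

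Dio2 (ENSMUSG00000007682, chr12:90724552-90738438, minus strand) had 1 read in the 12 ex vivo libraries together, in a KC library at 0.026 CPM, and no read in the other 11. All 12 cultures had reads of Dio2, at 88.4, 3.31 and 1.46 CPM in MG-LCs, 3.02, 15.9 and 11.1 CPM in KC-LCs, 25, 19.1 and 10.5 CPM in PM-LCs, and 19.8, 15.5 and 13.4 CPM in AM-LCs. The highest value stood in replicate 1 of the MG-LCs, a fibroblast-rich library, and the lowest in replicate 3 of the same group. Against a floor of 3 reads per library, Dio2 was at least 425-fold higher in MG-LCs (at least 32.7-fold without replicate 1, which sets the group mean), 207-fold in PM-LCs and 202-fold in AM-LCs, and in KC-LCs the ratio to the single read was 1158 (95% counting interval 208 to 45720). The additive test passed (edgeR adjusted p = 1.54e-09), and it passed without the fibroblast-rich libraries (adjusted p = 2.38e-10) and without the 6 libraries (adjusted p = 9.23e-09). A small count that the model adds sets the fitted fold change where a group has no read, and no such value is given as a bound.

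Mt2 (ENSMUSG00000031762, chr8:94172664-94173568, plus strand) was already transcribed ex vivo and rose in each organ. Ex vivo it was at 1.15, 1.19 and 1.41 CPM in MG, 5.71, 6.05 and 2.65 CPM in KC, 5.31, 3.63 and 3.2 CPM in PM and 70.4, 31.8 and 33.2 CPM in AM. In vitro it was at 412, 38.5 and 72.5 CPM in MG-LCs, 40.1, 88 and 41.8 CPM in KC-LCs, 20.8, 61.3 and 10.5 CPM in PM-LCs and 104, 215 and 314 CPM in AM-LCs. Within each organ the states did not overlap, although every sorted AM library had more Mt2 than the PM-LCs of replicates 1 and 3, and in MG-, PM- and AM-LCs the fibroblast-rich library was the highest of its group. The additive log2 fold change was 3.74 ± 0.59 (SE; edgeR adjusted p = 3.42e-05) and 3.30 without the fibroblast-rich libraries (3.35 without the 6 libraries), and with the 4 organs as the units it did not pass (limma adjusted p = 0.0832). It was 7.18 in MG, 3.53 in KC, 2.93 in PM and 2.26 in AM, a difference between organs that passed the interaction test (edgeR adjusted p = 0.00583). Its neighbour Mt1 was called higher in MG (2.97) and KC (2.30), while PM (0.15) and AM (0.76) did not pass. For Vegfa, Dio2 and Mt2, an exact permutation test over all 160000 splits within organs gave p = 1.25e-05 (two-sided), the smallest this design allows. This p is not adjusted and is fixed by the lack of overlap within each organ, so that it adds no support. Of all genes tested, 4.79% were higher in vitro without overlap in any organ, and these 3 genes were named with the comparison.

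**Figure D1:**
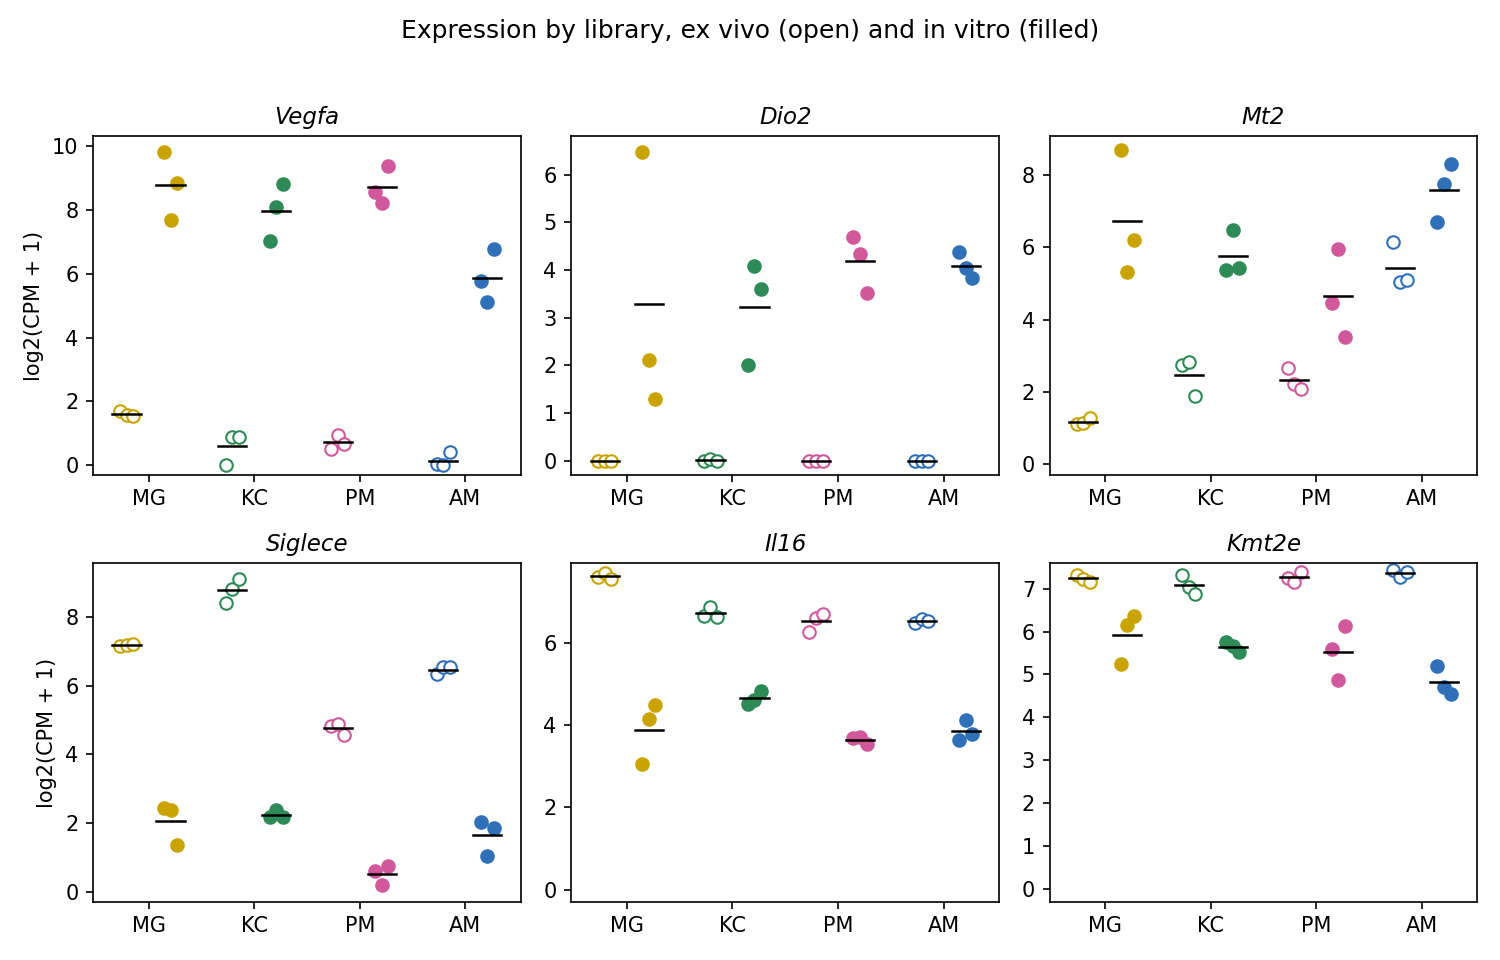
Expression of 6 genes by library, on the axis as log2(CPM + 1), with ex vivo libraries as open points, in vitro libraries as filled points and black bars at the mean of 3 libraries. Vegfa, Dio2 and Mt2 lie higher in vitro and Siglece, Il16 and Kmt2e lower in vitro in each of MG, KC, PM and AM, with no overlap between the 3 open and the 3 filled points of an organ.

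Across all genes, 2648 of 17408 were called higher in vitro (15.2%) and 2732 lower (15.7%) in the additive fit, together 30.9%, at an adjusted p under 0.05 and an absolute log2 fold change above 1. The separate fits, which have no library in common, called 20.6% of the genes tested higher and 17.7% lower in MG, 12% and 18.1% in KC, 13.3% and 9.98% in PM, and 17.2% and 14.1% in AM. An additive call does not show that a gene moved in each organ. Of the 2648 genes called higher 1685 were tested in each organ, and of the 2732 called lower 1355. The others could not be called in 4 organs, although the percentages that follow count them. Of the genes called higher, 271 (10.2%) were called so in each of the 4 separate fits and 522 (19.7%) in none of them, and of those called lower 138 (5.05%) and 474 (17.4%). These 409 genes, called shared genes here, were 3.47% of the 11777 genes tested in each organ, with 2.3% higher and 1.17% lower. Among the same 11777 genes, 5017 had the same sign of the fold change in each organ, 2745 of them higher and 2272 lower, and 796 were called in opposite directions in different organs. Without the fibroblast-rich libraries, 265 genes were shared higher and 143 shared lower, of which 240 and 107 were among the 271 and 138. The number of shared lower genes depended on single libraries, from 72 without replicate 3 of the sorted PM to 230 without replicate 3 of the PM-LCs, and limma-voom gave 214 in place of 138, with 55.5% of the shared genes higher in place of 66.3%.

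**Figure D2:**
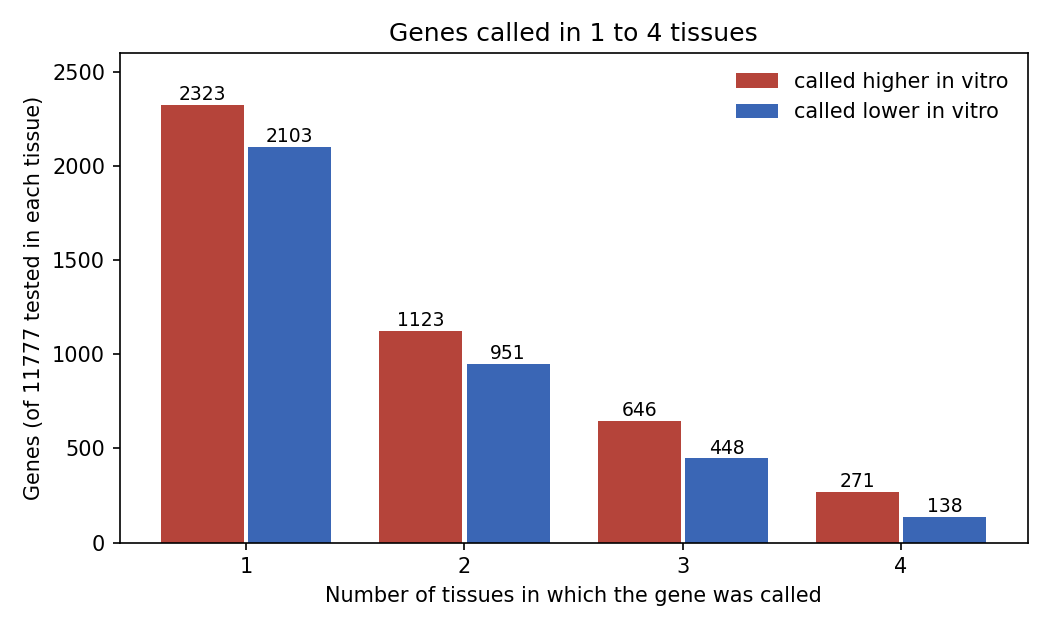
Number of genes called higher (red) or lower (blue) in vitro in exactly 1, 2, 3 or 4 of the organs, among the 11777 genes tested in each. The counts go from 2323 genes higher and 2103 lower in 1 organ to 271 higher and 138 lower in 4 organs.

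The smallest of the 4 absolute log2 fold changes had a median of 1.93 over the 271 higher and 1.46 over the 138 lower genes, and it was above 3 for 80 higher and 7 lower genes. The 3 in vitro and 3 ex vivo libraries did not overlap in any organ for 266 of the 271 and 137 of the 138 (4.79% and 3.96% over all genes tested), which largely follows from the calls that chose these genes and is given as a description. Within the shared genes the size of the effect could differ between organs, since the interaction test passed for 149 of the higher (55.0%) and 34 of the lower genes (24.6%), against 36.3% of all genes tested. Of the higher genes 254 and of the lower genes 122 were protein coding, and 6 and 2 were pseudogenes, whose reads may belong to their parent genes. The median length of the annotated transcript was 2640 bases for the higher, 4998 bases for the lower and 2988 bases for all genes tested, and the median span on the genome 19.1, 35.4 and 18.1 kb, while the median GC content was 48.7%, 48.7% and 49.4%. The part of transcript length in these calls was not tested. Of the total sum of squares of log2 CPM over all genes tested, the state held 23.3%, the organ 33.5%, their interaction 21.0% and the spread between replicates 22.2%.

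Among the shared higher genes, 199 met the criteria for naming, and the 15 with the largest smallest-of-4 change were named. Flrt2, a transmembrane ligand of Unc5 receptors (chr12:95692226-95785215), was between 0 and 0.108 CPM ex vivo and between 12.1 and 179 CPM in vitro (medians 0.0124 and 27.7 CPM), and its log2 fold change was 10.47 ± 0.61 (SE; edgeR adjusted p = 8.88e-11). Npy, the secreted neuropeptide Y, was between 0 and 4.65 CPM ex vivo and between 22.7 and 581 CPM in vitro (medians 0.0302 and 270.1 CPM). Its highest ex vivo values were those of KC at 4.65, 4.62 and 1.68 CPM, and its log2 fold change was 6.75 in KC and 12.13 in AM (edgeR interaction adjusted p = 0.00289). Dusp4, a nuclear phosphatase of MAP kinases, was at most at 0.389 CPM ex vivo and between 14.2 and 88.8 CPM in vitro. In the organs its log2 fold change was 8.29, 9.03, 9.16 and 7.30 in MG, KC, PM and AM. Sdc1, the heparan sulfate proteoglycan syndecan-1, was at most at 1.58 CPM ex vivo and between 21.9 and 519 CPM in vitro. Without the fibroblast-rich libraries its log2 fold change was 7.55, against 8.30 in all libraries.

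The other named genes also started near 0. Cpe (carboxypeptidase E, which trims prohormones), the protocadherin Pcdh7, the secreted angiopoietin-like protein Angptl2, the TGF-beta family ligand Gdf3, the serotonin receptor Htr2b, the orphan receptor Gpr176, the tetraspan protein Emp2 and the Cdc42-related GTPase Rhoj had additive log2 fold changes between 6.54 (Emp2) and 9.57 (Gpr176). Tmem171 and Pcp4l1 were at 8.91 and 8.76. In MG-LCs, Cpe, Pcdh7, Angptl2 and Rhoj were highest in the fibroblast-rich replicate 1, and Gdf3, Htr2b, Gpr176 and Emp2 in replicate 2. In AM-LCs, Cpe was at 4.93, 2.67 and 51.7 CPM and Pcdh7 at 1.37, 3.25 and 19.8 CPM, highest in the fibroblast-rich replicate 3. Angptl2 and Emp2 were highest in replicate 1 of the AM-LCs. For 13 of the 15 genes, Vegfa included, the lowest in vitro library of any organ was above the highest ex vivo library of any organ, and the exceptions were Pcp4l1 and Gdf3. Pcp4l1 was between 85.9 and 156 CPM in KC-LCs, at least 1572-fold higher than ex vivo, and between 0.687 and 1.47 CPM in AM-LCs, at least 14.5-fold higher. Gpr176 was between 15 and 79.6 CPM in vitro and had no read in 9 of the 12 ex vivo libraries. In sorted KC, the reads of Gpr176 (1.61 CPM), Emp2 (6.26 CPM), Dusp4 (0.389 CPM) and Htr2b (0.545 CPM) all stood in replicate 2, and replicates 1 and 3 had none. Where an organ had few or no reads ex vivo, the fitted values depend on the small count added by the model. The additive adjusted p of the 15 genes was at most 1.19e-06 (edgeR).

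The named genes lower in vitro were led by Siglece, an inhibitory receptor for sialic acids (chr7:43651070-43660161). Ex vivo it was at 142, 146 and 147 CPM in MG, 337, 455 and 555 CPM in KC, 27.4, 28.8 and 22.5 CPM in PM, and 79.5, 91.8 and 92.4 CPM in AM, and no in vitro library exceeded 4.47 CPM. Cultured cells kept 2.34% of the ex vivo level in MG-LCs, 0.833% in KC-LCs, 1.72% in PM-LCs and 2.56% in AM-LCs. The additive log2 fold change was -5.86 ± 0.29 (SE; edgeR adjusted p = 3.19e-11), and a difference between organs did not pass the test (adjusted p = 0.0689). Il6ra, the binding chain of the interleukin-6 receptor, was between 82 and 323 CPM ex vivo and between 4.12 and 36.1 CPM in vitro, and its log2 fold change was -3.16 ± 0.30 (SE). The cytokine Il16 fell from between 75.3 and 206 CPM to between 7.29 and 27.3 CPM, with a log2 fold change of -2.88 ± 0.19 (SE; edgeR adjusted p = 4.23e-10). Dapp1, an adaptor downstream of phosphoinositide 3-kinase, fell by 2.83 on the log2 scale, the nuclear receptor corepressor Nrip1 fell by 2.89, the cofilin phosphatase Ssh2 fell by 3.33 and Atp10d, of a family of lipid flippases and annotated as a polymorphic pseudogene in this genome, fell by 4.26.

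Glul, glutamine synthetase, changed by similar amounts, with -1.95 in MG, -2.42 in KC, -2.31 in PM and -2.02 in AM on the log2 scale (edgeR interaction adjusted p = 0.873). P2ry12, the ADP receptor known as a microglial gene, fell in each organ but by unequal amounts. It was between 5391 and 5694 CPM in sorted MG and between 2.49 and 18.9 CPM in MG-LCs. In AM it was between 17.8 and 19.1 CPM ex vivo and between 1.76 and 9.8 CPM in vitro. The log2 fold change was -8.93 in MG and -1.92 in AM, and the difference between organs passed the test (edgeR adjusted p = 6.26e-05). Slc22a17, a receptor for lipocalin-2, had a log2 fold change of -7.44 in KC and between -2.51 and -1.96 in the others (edgeR interaction adjusted p = 0.00163). It was called in each organ under 20 of the 35 settings that fitted the organs separately. The remaining named genes were the deadenylase subunit Pan2 (-2.13), the arginine- and serine-rich protein Rsrp1 (-2.98), Leng8 (-2.35), Soga1 (-2.49) and the antisense transcript Gm26740 (-3.41). The library kit does not mark strand, so that reads of Gm26740 and of a gene on the other strand cannot be told apart. For 10 of the 15 genes the highest in vitro library of any organ was below the lowest ex vivo library of any organ, and the additive adjusted p was at most 0.000422 (edgeR). With the 4 organs as the units, 10 of the 15 did not pass, with a limma adjusted p of up to 0.107.

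**Figure D3:**
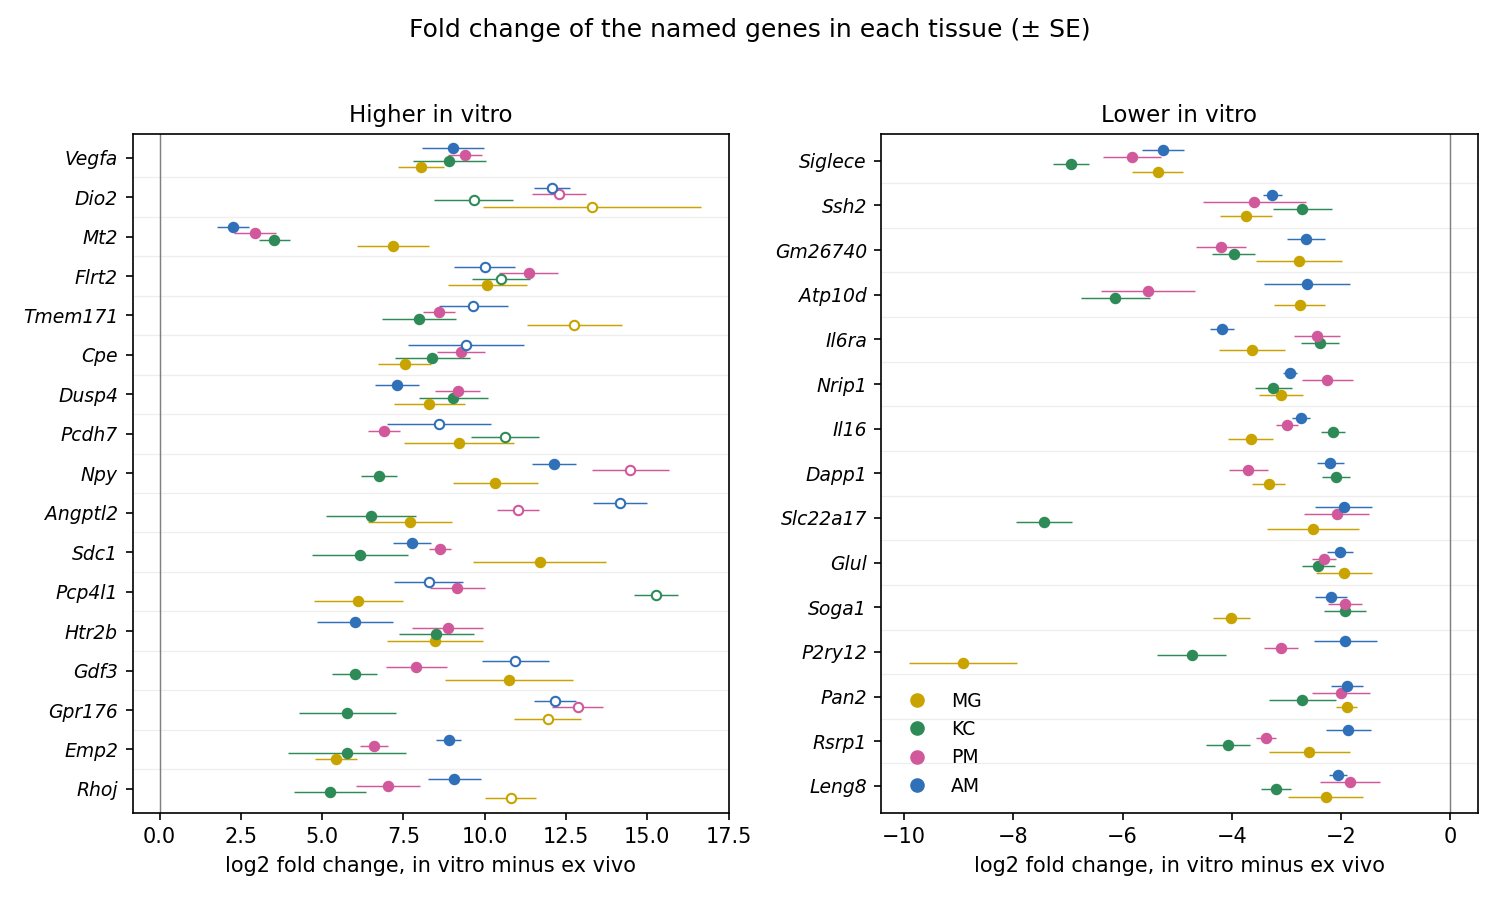
Log2 fold change (in vitro minus ex vivo) of Vegfa, Dio2, Mt2 and the named genes in the separate fits of the organs, with bars for ± SE of the fit. Open points mark groups with at most 3 reads ex vivo, where the value depends on the small count added by the model; the 4 points of each gene lie on the same side of 0, and those of P2ry12 spread from -8.93 to -1.92.

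Targets of HIF and enzymes of glycolysis were the first pathway lists with most members higher. Of 30 HIF targets tested 17 were called higher and 0 lower (56.7% higher, against 15.2% of all genes), with a median log2 fold change of 1.59 against 0.06 over all genes. Shared by all organs were Vegfa, Ndrg1, Ankrd37, Anxa1, the glucose transporter Slc2a1, the lipid droplet protein Hilpda and the endoplasmic reticulum oxidase Ero1l. Slc2a1 was between 7.81 and 69.7 CPM ex vivo and between 104 and 438 CPM in vitro, so that the states did not overlap across organs, and its log2 fold change was 2.63 ± 0.26 (SE; edgeR adjusted p = 1.66e-07). In AM-LCs, grown at atmospheric oxygen, 15 of the 29 HIF targets tested were called higher (against 17.2% of all genes in AM), with a median of 1.29, and at 3% oxygen the medians were 3.25 in MG, 1.18 in KC and 1.09 in PM. Oxygen, growth factor, glucose and organ differ together here and cannot be told apart. Of 19 glycolytic genes 14 were higher and 0 lower, with a median of 1.76, and Pgam1, Pgk1 and Pkm were shared besides Slc2a1. Pkm, pyruvate kinase, was between 184 and 641 CPM ex vivo and between 1072 and 3108 CPM in vitro. Pgam1 was between 3.77 and 8.83 CPM ex vivo and between 25.3 and 63.4 CPM in vitro (2.87 ± 0.16, SE), but both Pgam1 and Pgk1 have near-identical pseudogenes, and their levels are uncertain.

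Most of the listed genes of the oxidative stress response rose. Of 22 targets of NRF2, the factor that turns on antioxidant enzymes, 15 were higher (68.2%, against 15.2% of all genes) and 0 lower (against 15.7%). The median log2 fold change was 1.47, and the shared ones were the ferritin heavy chain Fth1, peroxiredoxin 1 (Prdx1), sulfiredoxin (Srxn1) and malic enzyme (Me1). Fth1 was at 959.9 ± 20.8 CPM in MG, 3507 ± 304 CPM in KC, 3168 ± 214 CPM in PM and 13027 ± 1917 CPM in AM (SD, n = 3). In vitro it was at 25774 ± 9297, 32490 ± 5619, 34885 ± 1871 and 34523 ± 5486 CPM in the same order. The group means of the cultures thus lay closer together than those of the sorted cells, and the log2 fold change ran from 4.79 in MG to 1.42 in AM (edgeR interaction adjusted p = 3.76e-05). Fth1 and Prdx1 have near-identical pseudogenes, and their levels are uncertain. Srxn1 was between 4.36 and 67 CPM ex vivo and between 128 and 279 CPM in vitro. Of 10 metallothionein and zinc genes, 5 were higher (50%) and 0 lower, and Mt2 was the shared one. In AM 4 of the 9 tested were called higher (against 17.2% of all genes in AM) and 2 lower (against 14.1%).

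Among lysosomal genes and genes known from lipid-laden macrophages, more were called higher than lower in each organ. Of 44 lysosomal genes 21 were higher (47.7%, against 15.2% of all genes) and 1 lower (Ctsf, against 15.7%), with a median log2 fold change of 0.79. The shared ones were Cd63, a tetraspanin of late endosomes, the hydrolases Gla and Lipa, the cholesterol carrier Npc2 and the proton pump subunits Atp6v1a and Atp6v1h. Cd63 was between 11.3 and 149 CPM ex vivo and between 998 and 2953 CPM in vitro, and its log2 fold change was 4.34 ± 0.29 (SE; edgeR adjusted p = 7.81e-10). Npc2 changed by similar amounts, with 1.62 in MG, 1.51 in KC, 1.33 in PM and 1.87 in AM. Of 25 lipid-associated macrophage genes 21 were higher and 0 lower (84%), with a median of 2.99, and Gpnmb, Spp1, Fabp5, Lgals3, Lgals1, Cd36 and Cd63 were shared. Gpnmb, a transmembrane glycoprotein of endosomes and lysosomes, was at 4.4 ± 4.22 CPM in MG, 339 ± 333 CPM in KC, 6.65 ± 2.55 CPM in PM and 812 ± 74.9 CPM in AM (SD, n = 3), and between 4984 and 32078 CPM in the 12 cultures. Spp1, osteopontin, was at most at 990.3 CPM ex vivo and at least at 2316 CPM in vitro. Of the 6 genes besides Cd63, 5 had their largest fold change in MG and Gpnmb had it in PM, and the interaction passed the test for each (edgeR adjusted p at most 0.000116).

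Secreted proteases, chemokines and amino acid genes also had shared members. Of 20 matrix proteases and inhibitors 13 were higher (65%, against 15.2% of all genes) and 0 lower (against 15.7%), with a median of 2.79. The list did not rise as a whole in KC, where the median was -0.14, against 4.22 in MG, 2.89 in PM and 3.43 in AM. In KC 5 of 18 were called higher (against 12% of all genes in KC) and 2 lower (against 18.1%). The shared ones were the macrophage elastase Mmp12, the sheddase Adam8 and the urokinase Plau. Mmp12 was between 1.77 and 547 CPM ex vivo and between 1731 and 31752 CPM in vitro. Timp1, a protease inhibitor that fibroblasts also make, was at 1667, 1.97 and 47.4 CPM in MG-LCs, and without the fibroblast-rich libraries 11 members of the list were higher, without the 6 libraries 7 and without MG 5. Of 27 NF-kB targets 12 were higher and 0 lower (44.4%), with a median of 1.89, and Ptgs2 (cyclooxygenase 2) and the chemokines Ccl2, Ccl3, Ccl4 and Ccl7 were shared. Ccl4 was between 0.245 and 45 CPM ex vivo and between 69.8 and 1419 CPM in vitro. Of 24 ATF4 targets, many of which serve amino acid supply, 15 were higher (62.5%, against 15.2% of all genes) and 1 lower (Nupr1). The median was 1.67, and asparagine synthetase (Asns) and the serine enzyme Psat1 were shared. Asns was between 0 and 16.2 CPM ex vivo and between 29.2 and 206 CPM in vitro (edgeR interaction adjusted p = 0.386). The unfolded protein response had 0 higher and 1 lower of 19 members (Herpud1) in the additive fit, while in AM 12 of the 19 were called higher (against 17.2% of all genes in AM) and 1 lower (against 14.1%).

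In the lists of histone and DNA modifying enzymes and of splicing factors, more members were lower than higher in vitro. Of 41 genes 18 were lower (43.9%, against 15.7% of all genes; 58.5% with the adjusted p alone) and 1 higher, the DNA methyltransferase Dnmt3a, with a median of -0.84 and medians of -0.69 in MG, -0.91 in KC, -0.68 in PM and -0.80 in AM. The shared ones were Setd1b, Kmt2a, Kmt2e and Nsd1, of which Setd1b, Kmt2a and Nsd1 are known to methylate histone H3. Kmt2e was between 116 and 173 CPM ex vivo and between 22.5 and 81.9 CPM in vitro, without overlap across organs, and its log2 fold change was -1.73 ± 0.18 (SE; edgeR adjusted p = 2.18e-07). Kmt2a was at 56.4 ± 1.54 CPM in MG, 57.5 ± 16.7 CPM in KC, 40.2 ± 10.5 CPM in PM and 26.9 ± 6.1 CPM in AM, and at 19.6 ± 12.3, 7.89 ± 2.77, 12.6 ± 7.17 and 8.31 ± 1.38 CPM in the cultures of the same order (SD, n = 3). Kmt2d and Kmt2c fell by 2.61 and 2.15 in the additive fit and did not overlap in any organ, but missed the test in PM (edgeR adjusted p = 0.0745 and 0.122). Of 40 splicing factors 6 were lower (15%, near the 15.7% of all genes) and 0 higher, with a median of -0.46. With the adjusted p alone, 27 of the 40 were lower (67.5%, against 23.4% of all genes) and 1 higher, and 24 had a negative fold change in each organ. The kinase Clk1 and Hnrnph1 were shared, and Clk1 was between 62.8 and 255 CPM ex vivo and between 16.8 and 62.2 CPM in vitro, with a log2 fold change of -2.19 ± 0.21 (SE; edgeR adjusted p = 1.21e-07). H2-DMa, a chaperone that helps to load peptide on MHC class II, was the shared member of its list, with -2.72 in MG, -2.56 in KC, -1.71 in PM and -1.15 in AM. The list itself did not fall in each organ, with 1 of 10 members lower (10%, against 15.7% of all genes) and 0 higher in the additive fit. In KC 10 were called lower (against 18.1% of all genes in KC), while in AM 6 were called higher and 1 lower (against 17.2% and 14.1%). In MG 4 were called higher and 4 lower (against 20.6% and 17.7%), and in PM 1 and 1 of 9 (against 13.3% and 9.98%).

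Other lists moved in some organs and not in all. Cholesterol synthesis had 15 of 25 members higher (9 without KC) and 0 shared, with medians of 1.71 in MG, 1.94 in KC, 0.66 in PM and 0.28 in AM. Immediate early genes had 13 of 28 higher, with medians of 1.94, 1.53 and 2.33 in MG, KC and PM and -0.97 in AM, where 3 were called higher and 11 of 27 lower (against 14.1% of all genes in AM), and 7 were higher with the replicate block or without PM or MG and 8 without KC. Atf3 was shared, at between 25.2 and 79.7 CPM ex vivo and between 170.1 and 1168 CPM in vitro. Interferon-stimulated genes had 16 of 28 higher and 0 shared, and in KC 0 members were called higher and 5 of 28 lower (17.9%, against 18.1% of all genes in KC). Cell cycle genes had 7 of 30 higher, and 27 of the 30 were called higher in MG (against 20.6% of all genes in MG), against 2 to 4 in the other organs, so that 4 were higher in the additive fit without MG. The clock list had 7 of 18 higher (38.9%) with Dbp shared, and the fatty acid synthesis list 4 of 14 higher (28.6%) and 1 lower (7.14%) with Acsl3 shared. The TGF-beta list had 7 of 21 higher (33.3%) and 3 lower (14.3%) with Ltbp3 shared. The glucocorticoid list had 5 of 17 higher (29.4%) and 3 lower (17.6%) with Mt2 shared. The actin and adhesion list had 8 of 35 higher (22.9%) and 3 lower (8.57%) with Tpm1 shared. Over all genes 15.2% were higher and 15.7% lower, and 2.3% of those tested in each organ were shared higher. The lower shares of these lists were thus near or below that of all genes. The respiratory chain had 7 of 36, ribosomal proteins 10 of 39, heat shock proteins 3 of 15 and LXR targets 2 of 16 members higher, against 15.2% of all genes, and each of these had 0 shared members. With the adjusted p alone, 33 of the 36 respiratory chain and 24 of the 39 ribosomal genes were higher (against 25.9% of all genes), while at an absolute log2 fold change above 1.5 the counts were 0 and 1, and without MG they were 3 and 1. Of the heat shock proteins and LXR targets, 2 and 3 members were lower.

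**Figure D4:**
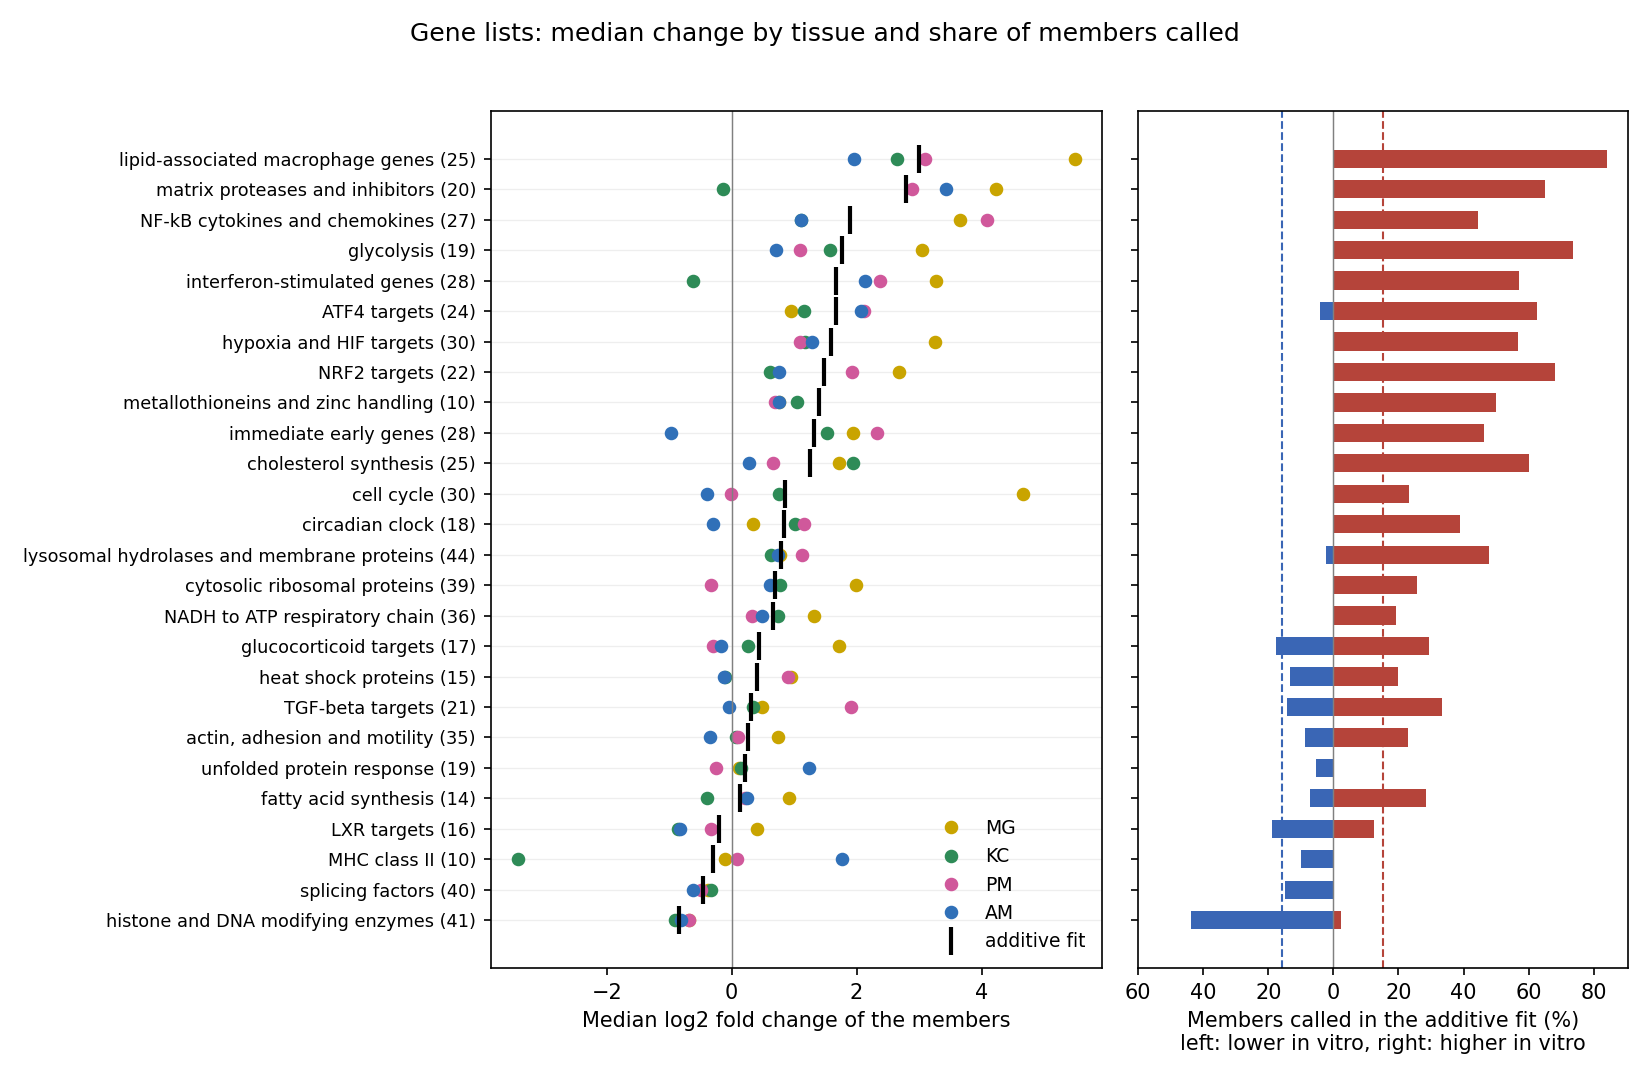
Left, median log2 fold change of the members of each gene list in the separate fits (coloured points) and in the additive fit (black bars), with the number of members tested in brackets. Right, share of members called higher (red) or lower (blue) in the additive fit, with dashed lines at the 15.2% and 15.7% of all genes; the 4 points of the HIF, glycolysis, NRF2, lysosomal and lipid-associated lists lie above 0 and those of the splicing and histone lists below 0, while the interferon, immediate early, cell cycle and MHC class II lists have points on both sides.

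Among the shared genes, the shares of promoter windows with a motif were as follows. Windows were found for 195 shared higher and 103 shared lower genes, and the shares with the hypoxia core were 51.2% and 43.9%, against 52.4% for all genes tested. The metal response core was in 25.8% and 31.1%, against 28.7%, the AP-1 site (TGANTCA) in 7.14% and 9.09%, against 4.99%, the antioxidant core (TGACNNNGC) in 13.1% and 14.4%, against 11.8%, and the CRE in 1.59% and 0.758%, against 2.46%. The E-box (CACGTG) was in 8.33% and 5.3%, against 7.93%, and each E-box also holds a hypoxia core. Both strands were searched, and a palindrome was counted once.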

How the data were processed

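Bulk RNA-seq was done on 24 libraries of 8 groups, made with the SMARTer v4 and Nextera XT kits. The authors deposited raw counts per gene, which the study describes as reads trimmed with Trimmomatic and counted by STAR on mm10. The submitters' processing notes list Trimmomatic 0.36, STAR 2.5.2b and hg19 instead, while the identifiers in the table are mouse Ensembl genes. The strand setting of the counting is not given in the sources used here. All 24 columns were matched to samples by their titles and 0 had no sample. The table held 45706 genes, of which 16638 had no read.

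Counts were tested in R 4.3.3 with the quasi-likelihood test of edgeR 4.0.16, after filterByExpr (minimum count 10) and TMM normalization. The additive model held state and organ, each organ was also fitted alone, and the interaction was tested in a model of all 8 groups. Positive log2 fold changes mean higher in vitro. A prior count of 2 was used only where log2 CPM was computed directly, and the edgeR fits kept the default of that tool. A gene was called at a Benjamini-Hochberg adjusted p under 0.05 and an absolute log2 fold change above 1, and it was called shared if it was called the same way in each organ. Named genes were the 15 in each direction with the largest smallest-of-4 absolute log2 fold change among shared genes whose states did not overlap in any organ and whose mean level exceeded 4 in log2 CPM (199 higher and 95 lower genes). The marker genes and gene lists were chosen with earlier results of these data known. Replicates differed by more than counting noise (chi-square per degree of freedom 12.9 to 845), and since the labels do not say whether they came from separate animals, p-values measure the spread between these libraries, which may be technical. Intervals and floors cover counting error only. The fitting code was tested on simulated counts. limma 3.58.1 (voom), DESeq2 1.42.0, other filters, thresholds, size factors and models, a replicate block and the fits without single libraries or organs served as alternatives, and a fit without 6 libraries rich in fibroblast RNA was added after seeing the data. Promoter windows came from RefSeq (GRCm38.p6), and gene starts there can differ from those behind the counts.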

Additional observations from a re-analysis of the deposited data

Results flagged for a closer look

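Among Vegfa, Dio2, Mt2 and the named genes, the effect of culture differed in size between the organs for 11 (adjusted p of the edgeR interaction test in brackets). Members of the gene lists that were not named genes were left out of this count, although some of them passed this test too, such as Fth1. These were Mt2 (0.00583), Npy (0.00289), Pcp4l1 (0.0205) and Gpr176 (0.0189) among the genes higher in vitro, and Atp10d (0.0197), Il6ra (0.0464), Il16 (0.0117), Dapp1 (0.00853), Slc22a17 (0.00163), Soga1 (0.00398) and P2ry12 (6.26e-05) among those lower in vitro. Each of the 11 was called in the same direction in all 4 organs, and the sizes differed. The causes of these differences were not tested.

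For 4 gene lists, the mean log2 CPM of the members moved in opposite directions between organs, with no overlap between the 3 in vitro and the 3 ex vivo libraries of an organ. The difference was not tested for any of these lists. LXR targets, many of which serve cholesterol export, differed by 2.09 (in vitro minus ex vivo) in MG, -2.14 in KC and -0.537 in AM. Heat shock proteins differed by -0.819 in KC and 0.529 in PM. Interferon-stimulated genes differed by 2.16 in MG, 3.21 in PM and 1.74 in AM, but by -1.13 in KC. MHC class II genes differed by -3.42 in KC and 1.43 in AM.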

How the results depend on the processing

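Of 298 values recomputed for the comparisons under the alternatives, 278 stayed the same, 19 moved and 1 became weaker. Counts of genes were taken as the same within 1.5 times the main count, and they have no direction. Fold changes of Vegfa, Dio2 and Mt2 were the same if they kept their direction and their side of the threshold, and none reversed. Of 1158 values of named genes, 11 lost their call, all with organs as the units, and of 2160 counts of list members called, 201 moved by over 1.5 times, such as lysosomal genes (21 higher, 11 at an absolute log2 fold change above 1.5), cholesterol synthesis (15 and 9) and immediate early genes (13 higher, 7 with the replicate block). The count of shared lower genes was 214 with limma-voom, 216 with DESeq2 and 215 with contrasts of 1 model of all libraries, against 138. With an absolute log2 fold change above 1.5, 173 genes were shared higher and 63 lower, and with the adjusted p alone 4508 genes were higher in the additive fit and 456 shared higher. Adjusting the largest p of the 4 organs left 13 genes shared higher and 2 lower. With the 4 organs as the units of replication, 112 genes were higher and 83 lower, Mt2 was at 3.66 without passing (limma adjusted p = 0.0832), and 12 of the named genes and markers lost their call, in a test with 4 values per gene. For the other moves the cause was not tested. Leaving out single libraries gave 2511 to 2935 genes higher and 2674 to 3062 lower in the additive fit, 206 to 301 shared higher and 72 to 230 shared lower, 5201 to 6667 genes with an interaction, and log2 fold changes of 8.67 to 9.04 for Vegfa, 10.9 to 12.48 for Dio2 and 3.45 to 3.94 for Mt2. The libraries that moved the shared lower count by over 1.5 times were replicates 1, 2 and 3 of sorted MG (77, 82 and 83 without each) and of sorted PM (80, 83 and 72), and replicates 1 and 3 of the PM-LCs (89 and 230). Depth limits the levels of genes near 0 ex vivo, such as Dio2.

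The replicate numbers are shared between ex vivo and in vitro groups, but neither the labels nor the correlations show that they pair the libraries. The correlations of same-numbered deviations from the group means were between -0.104 and 0.0558, and 3 of 12 libraries correlated best with their own number. Low correlations also do not show that equal numbers came from separate animals or days. With the replicate block, 2083 genes were higher and 2543 lower, 226 were shared higher and 134 shared lower, and Vegfa, Dio2 and Mt2 were at 9.02, 11.53 and 3.55, all past the threshold.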
